A study of Homo sapiens with 16 samples.

Results

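Chaperones of the heat shock families were followed in HEK293 cells, a human embryonic kidney line, after exposure to interferons. The set held 36 genes taken by name from the 20802 gene targets counted in each library: HSP70, HSP110, HSP40, HSP90 and small HSP genes, subunits of the TRiC chaperonin, mitochondrial chaperones, co-chaperones of HSP70 and HSP90, and the heat shock factors HSF1 and HSF2. Of the 36, 34 passed the filter on low counts and were tested. HSPA2, with 5 reads over all 16 libraries, and DNAJA4, with 51, were not tested. Each of the 34 had a mean of at least 6.34 CPM (counts scaled to a common library size) in the group where it was lowest, so none entered through 1 high group alone.

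The cells carried either optimized receptors, which the study's title ties to the geometry of the receptor-bound JAK kinases, or wild-type receptors. They received 100 nM of IFNw (interferon omega, a type I interferon), of H11 (labelled a high-affinity form of IFNL3) or of IFNL3 (interferon lambda 3, a type III interferon) for 15 minutes, or were left untreated. All libraries carry a 24 hr time label, and the sources used here do not say how it relates to the 15-minute exposure. These 8 groups had 2 libraries each, labelled as biological replicates. No label says that the libraries came from separate cultures, so p-values measure the spread between these libraries, which may be technical. There was no mock-treated group. The sources used here do not say how the receptors were introduced or whether either line is 1 clone. In such bulk RNA, a change in the share of cells that express a gene and a change per cell cannot be told apart.

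Heat shock proteins fold new or damaged proteins. HSP40s deliver clients to HSP70, HSP110s release its nucleotide, HSP90 and its co-chaperones finish many kinases and receptors, TRiC folds actin and tubulin in its chamber, and HSPD1 with its lid HSPE1 does the same in mitochondria. Under proteotoxic stress the factor HSF1 binds heat shock elements, inverted repeats of GAA and TTC, in the promoters of many of these genes, while JAK kinases act through STAT factors at other elements.

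The promoters of 5 members that recur in the results are shown because they differ in how many heat shock element cores they hold. Each is the RefSeq window (GRCh38.p14) of 300 bases around the gene's start, 5′ to 3′ on the gene's strand, with cores in capitals. A core was GAANNTTC or TTCNNGAA, and since each equals its own reverse complement, a match covers both strands. The windows are HSPA8 at chr11:123062087-123062386 (minus strand), DNAJA1 at chr9:33025023-33025322 (plus), HSPA1A at chr6:31815293-31815592 (plus), HSPD1 at chr2:197499791-197500090 (minus) and HSPE1 at chr2:197500129-197500428 (plus).
HSPA8: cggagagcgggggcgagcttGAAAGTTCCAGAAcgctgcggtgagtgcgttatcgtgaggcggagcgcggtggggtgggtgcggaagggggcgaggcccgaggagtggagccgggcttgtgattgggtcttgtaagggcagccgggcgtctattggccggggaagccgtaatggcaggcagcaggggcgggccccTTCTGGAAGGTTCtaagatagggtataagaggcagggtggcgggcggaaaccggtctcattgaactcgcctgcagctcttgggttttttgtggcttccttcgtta
DNAJA1: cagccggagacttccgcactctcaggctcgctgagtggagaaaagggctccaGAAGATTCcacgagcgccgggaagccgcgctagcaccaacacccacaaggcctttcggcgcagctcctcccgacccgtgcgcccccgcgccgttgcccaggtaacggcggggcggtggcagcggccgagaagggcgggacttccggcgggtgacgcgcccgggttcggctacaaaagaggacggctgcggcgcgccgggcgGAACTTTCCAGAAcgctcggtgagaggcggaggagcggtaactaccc
HSPA1A: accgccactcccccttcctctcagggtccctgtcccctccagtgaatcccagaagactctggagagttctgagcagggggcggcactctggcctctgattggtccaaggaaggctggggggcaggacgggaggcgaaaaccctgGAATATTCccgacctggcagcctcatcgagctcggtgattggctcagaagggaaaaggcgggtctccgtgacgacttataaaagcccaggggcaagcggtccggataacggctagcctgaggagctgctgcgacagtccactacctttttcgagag
HSPD1: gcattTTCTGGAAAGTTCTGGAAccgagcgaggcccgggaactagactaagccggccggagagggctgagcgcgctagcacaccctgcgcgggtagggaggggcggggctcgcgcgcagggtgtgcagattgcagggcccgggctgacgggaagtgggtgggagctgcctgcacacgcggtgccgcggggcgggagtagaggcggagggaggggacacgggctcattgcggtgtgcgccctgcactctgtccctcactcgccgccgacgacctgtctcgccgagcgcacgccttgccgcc
HSPE1: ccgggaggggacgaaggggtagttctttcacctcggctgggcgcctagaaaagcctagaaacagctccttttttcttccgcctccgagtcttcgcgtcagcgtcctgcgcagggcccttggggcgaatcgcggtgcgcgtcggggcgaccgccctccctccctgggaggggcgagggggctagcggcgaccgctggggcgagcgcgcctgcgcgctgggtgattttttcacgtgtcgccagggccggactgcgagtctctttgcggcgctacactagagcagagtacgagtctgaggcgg
Of 33 members with a window used here, 19 (57.6%) had a core in at least 1 window, against 4417 of 27305 genes in the whole table (16.2%). Counted by window, 20 of 49 member windows (40.8%) and 4737 of all 35116 (13.5%) held a core. The longer elements GAANNTTCNNGAA or TTCNNGAANNTTC, which contain overlapping cores, stood in 7 members (CHORDC1, DNAJA1, DNAJB6, HSP90AA1, HSP90AB1, HSPA8 and HSPD1; 21.2%), against 166 genes (0.608%). HSPD1 and HSPE1 lie head to head, and of the 2 windows printed for them only that of HSPD1 held a core. The printed HSPD1 window lies just upstream of that of HSPE1. The lack of a core in the HSPE1 window therefore depends on where the windows are cut. HSPD1 has a second window in the table, at chr2:197500225-197500524 (minus), which overlaps that of HSPE1, holds no core and is not printed. These matches are a description of letters, not of binding. RefSeq windows for ST13, FKBP4 and HSF1 are not used here. Windows on 1 chromosome were left out of the member counts but kept in those of the whole table.

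Libraries held 5331203 to 9822088 counted reads and 14033 to 15250 genes with a read. The interferon panel (ISG15, IFI6, IFIT1, USP18, IRF9 and OAS1) was higher in all 6 ligand comparisons, 6 of 6 genes each time. ISG15 had 4370 to 7857 CPM in optimized cells with any ligand and in wild-type cells with IFNw, 521 to 628 CPM in wild-type cells with H11 or IFNL3, and 13.0 to 19.2 CPM in untreated cells. The epithelial keratins KRT8 (7.88 to 23.1 CPM) and KRT18 (38.5 to 57.4 CPM) and the N-cadherin gene CDH2 (11.2 to 58.9 CPM) were present in all libraries. The neurofilament genes NEFM and NEFL, often listed for this line, had 4 and 59 reads over all libraries, while COL3A1 and ALB had 0 and PTPRC 1. COL1A1, listed like COL3A1 as a fibroblast gene, was present at 6.51 to 21.6 CPM (2095 reads over all libraries). Replicates correlated at 0.983 to 0.986 on log CPM, except untreated optimized cells at 0.965, whose replicate 2 was the shallowest library. Libraries also differed in how level relates to transcript length. The Spearman correlation of each library's deviation with length was -0.44 to -0.41 with IFNw in both genotypes and H11 in optimized cells, 0.38 to 0.41 with H11 or IFNL3 in wild-type cells, and 0.07 to 0.16 in the remaining libraries. The 50 most abundant genes took 27.8 to 28.7%, 17.7 to 18.5% and 23.7 to 25.7% of reads in the same 3 sets, and the part of this share in the results was not tested. Where an adjustment for length changed a member's named change by more than 1.5 times or ended its call, the adjusted value is given beside it. Genes outside the set are given without that adjustment. Targets of HSPA1A, HSPA1B, HSPA8, CCT3 and TCP1 list more than 1 Entrez ID. HSPA1A and HSPA1B share 1922 of 1926 coding positions (99.8%), and HSPE1, HSPA8, HSPD1 and ST13 have 26, 17, 17 and 16 named pseudogenes, so reads may be split among copies and these values are uncertain to that extent.

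Summed over the members, chaperone RNA was higher in every ligand-treated library than in any untreated one. The sum was 14847 to 15966 CPM with IFNw in both genotypes and H11 in optimized cells, 14642 and 14927 CPM with IFNL3 in optimized cells, and 12468 to 12923 CPM with H11 or IFNL3 in wild-type cells, against 10962 to 11304 CPM in untreated cells. These sums rest on the scaling of library sizes. Its factors were 0.795 to 0.836, 1.004 and 1.023, and 1.258 to 1.277 in the same 3 treated sets, and 1.050 to 1.072 untreated. The order of the treated sets depends on these factors. Of the 36 members, 6 rose in all 6 ligand comparisons (HSPA1A, HSPA1B, HSPA8, HSPH1, DNAJA1 and DNAJB1), which are the inducible and constitutive HSP70s, an HSP110 and 2 HSP40s. Without wild-type untreated replicate 1 only 3 of them did, HSPA1B, HSPH1 and DNAJB1 being lost. DNAJB4 rose in 5 comparisons, HSP90AA1, CCT3 and HSPE1 in 4, and 13 members in none, the 2 untested ones among them. The 3 comparisons of a genotype share their untreated libraries. The share of all genes that rose in all 6 comparisons was not counted, so the 6 members have no background beside them.

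Calls were made at an adjusted p of 0.05 (edgeR's quasi-likelihood test, Benjamini-Hochberg over 12704 genes). With IFNw, 15 of 34 members were higher and 1 lower in optimized cells (33.4% of all genes were called), and 16 higher and 1 lower in wild-type cells (31.4%). H11 gave 15 higher and 3 lower in optimized cells (32.4% of all genes), and 13 higher and 4 lower in wild-type cells (38.8%). IFNL3 gave 13 higher and 0 lower in optimized cells (13.3%), and 13 higher and 5 lower in wild-type cells (39.7%). Members were thus called more often than genes at large in each, at 38.2 to 52.9% of the 34, and mostly upward. Genes at large were not matched to the members in level, and the part of level in this excess was not tested. The median log2 fold change of the members was 0.27 with IFNw, 0.25 with H11 and 0.27 with IFNL3 in optimized cells, and 0.31, 0.18 and 0.20 in wild-type cells, beside -0.05 to -0.01 for all genes. No called member's ligand libraries overlapped its untreated ones, which with 2 libraries a side adds little to the call itself. The counts moved with single libraries. Without wild-type untreated replicate 1, the calls were 9 with H11 and 11 with IFNL3 in wild-type cells. Without wild-type H11 replicate 2 they were 11 with H11, and without optimized untreated replicate 2 they were 22 with IFNw, 23 with H11 and 13 with IFNL3 in optimized cells. With the optimized IFNL3 and untreated groups fitted alone, 6 were called with IFNL3.

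**Figure D1:**
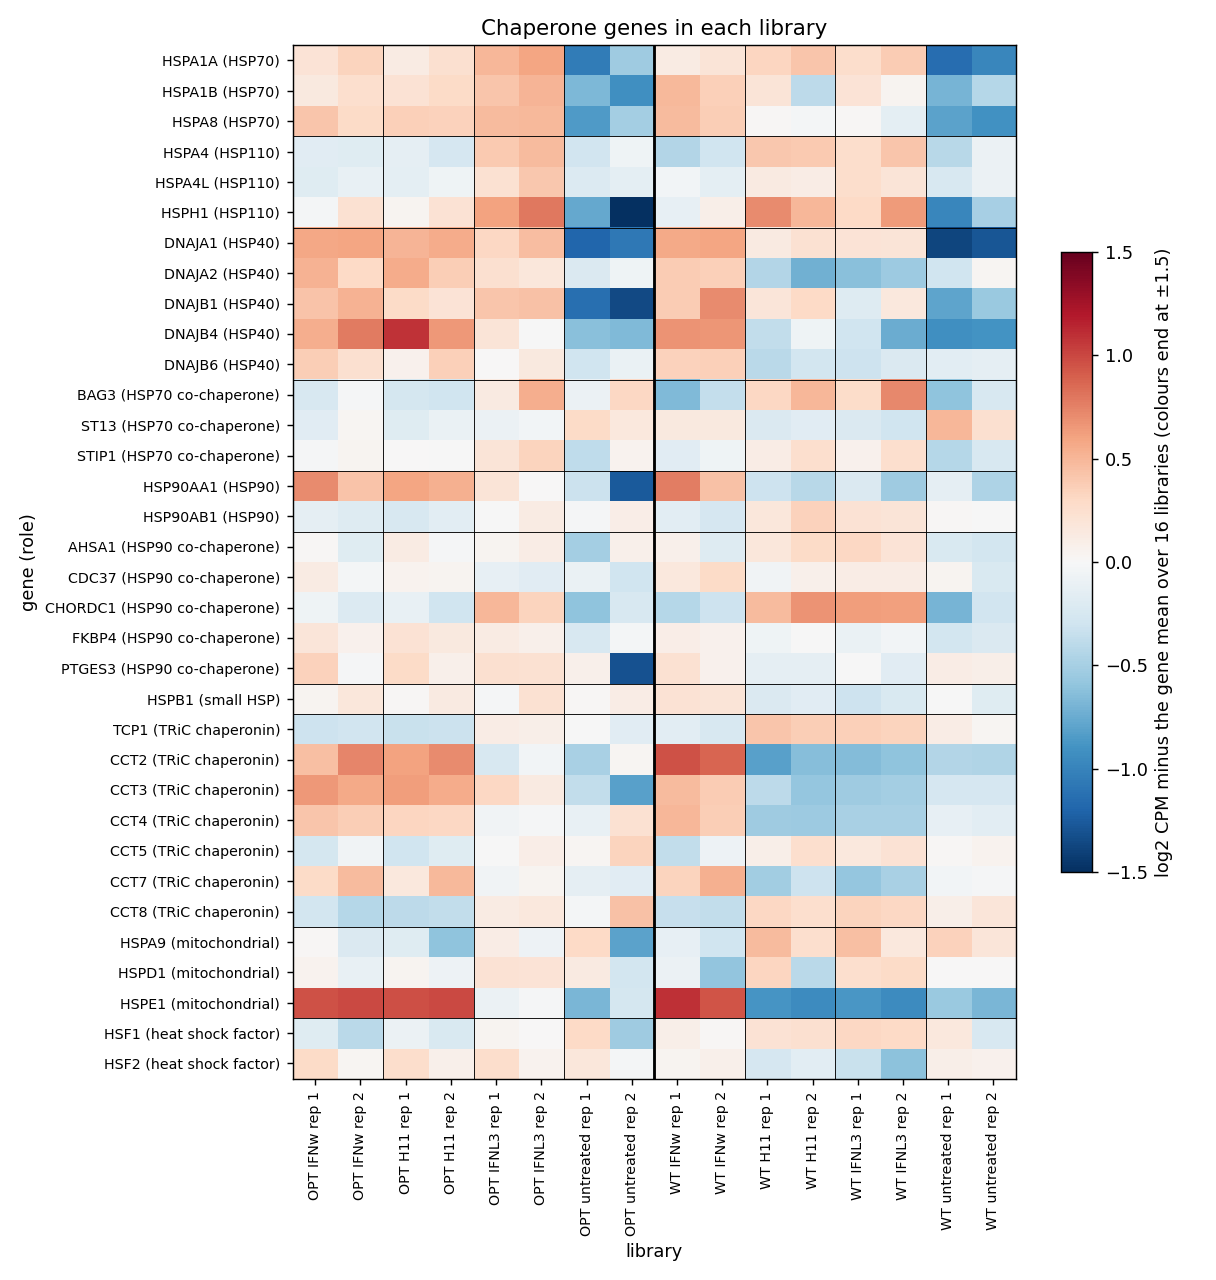
Level of each tested chaperone in every library, as log2 CPM minus the gene's mean over the 16 libraries (colour), with genes down the page by family and libraries across, optimized (OPT) left of wild-type (WT) cells and ligand groups left of untreated cells. HSPA1A, HSPA8, DNAJA1 and DNAJB1 are blue in all untreated libraries, while HSPE1 and CCT2 are red with IFNw in either genotype and with H11 in optimized cells.

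The cytosolic HSP70s HSPA8, HSPA1A and HSPA1B rose with every ligand. HSPA8, the constitutive cytosolic HSP70, had 1841 and 1682 CPM with IFNw, 1762 and 1753 CPM with H11 and 1920 and 1931 CPM with IFNL3 in optimized cells, against 762 and 966 CPM untreated. Its wild-type values were 1923 and 1782 CPM with IFNw, 1393 and 1347 CPM with H11 and 1393 and 1250 CPM with IFNL3, against 792 and 734 CPM untreated. Every treated library was above every untreated one, and in wild-type cells the lambda ligands gave a lower level than IFNw. With IFNw in wild-type cells the log2 fold change was 1.28 ± 0.12 (SE; edgeR adjusted p = 5.02e-07).

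HSPA1A, the classical stress-inducible HSP70, had 295 and 321 CPM with IFNw, 277 and 302 CPM with H11 and 362 and 385 CPM with IFNL3 in optimized cells, against 123 and 177 CPM untreated. Wild-type cells gave 278 and 292 CPM with IFNw, 319 and 341 CPM with H11 and 307 and 332 CPM with IFNL3, against 115 and 130.0 CPM untreated. Treated and untreated libraries were apart in each comparison, with log2 fold changes between 0.95 and 1.43. The rise was 1.32 ± 0.145 with IFNL3 in optimized cells (edgeR adjusted p = 6.68e-06), and 1.43 ± 0.145 with H11 and 1.38 ± 0.145 with IFNL3 in wild-type cells (edgeR adjusted p = 1.21e-06 and 1.56e-06). HSPA1B, its near-identical neighbour, had 72.0 and 77.5, 75.4 and 79.6, and 86.9 and 92.8 CPM with IFNw, H11 and IFNL3 in optimized cells, against 40.8 and 34.5 CPM untreated, and rose by 1.25 ± 0.17 with IFNL3 (edgeR adjusted p = 9.67e-05). The wild-type line had 91.3 and 83.7 CPM with IFNw, 74.7 and 49.7 CPM with H11 and 75.0 and 66.9 CPM with IFNL3, against 40.3 and 48.3 CPM untreated. The second wild-type H11 library lay next to an untreated one. That call was lost without wild-type H11 replicate 1 (log2 fold change 0.17, edgeR adjusted p = 0.499), and without wild-type untreated replicate 1 HSPA1B was lost with H11 (0.36, adjusted p = 0.209) and with IFNL3 (0.56, adjusted p = 0.0577).

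**Figure D2:**
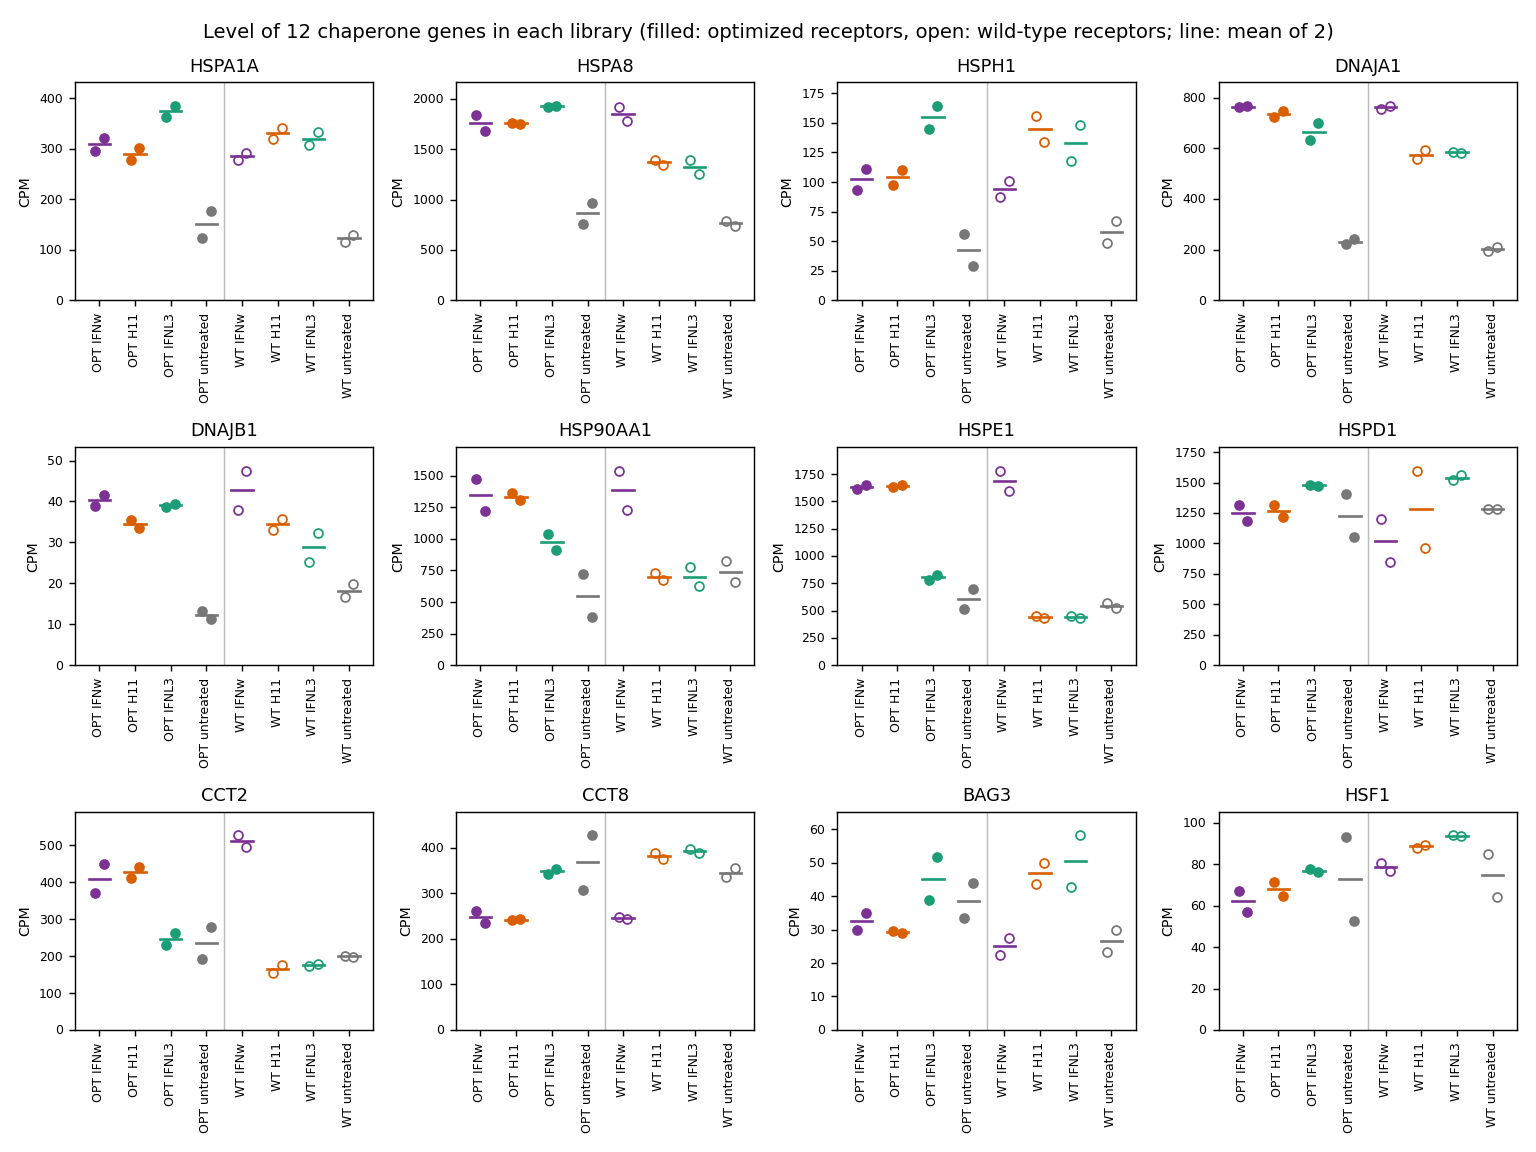
Level (CPM) of 12 chaperones in every library: filled points are optimized (OPT) cells, open points wild-type (WT) cells, lines the mean of the 2 libraries, and ligand groups stand left of untreated cells. HSPA8 and DNAJA1 are higher in each treated library than in any untreated one, while HSPE1 is between 1598 and 1783 CPM in 6 libraries and at or below 823 CPM in the rest.

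Among the HSP40s, DNAJA1 changed most consistently. It had 762 and 767 CPM with IFNw, 725 and 748 CPM with H11 and 632 and 699.9 CPM with IFNL3 in optimized cells, against 223 and 241 CPM untreated. In wild-type cells it had 755 and 768 CPM with IFNw, 556 and 594 CPM with H11 and 585 and 583 CPM with IFNL3, against 196 and 209.6 CPM untreated. Treated and untreated libraries were far apart, the lowest treated library having 556 CPM and the highest untreated one 241 CPM. The log2 fold changes were 1.72 ± 0.11, 1.67 ± 0.11 and 1.52 ± 0.11 with IFNw, H11 and IFNL3 in optimized cells (edgeR adjusted p = 2.83e-09, 4.28e-09 and 1.93e-08). In wild-type cells they were 1.91 ± 0.11, 1.505 ± 0.11 and 1.53 ± 0.11 (edgeR adjusted p = 7.25e-10, 1.74e-08 and 1.45e-08).

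DNAJB1, an HSP40 that activates HSP70 after stress, had 39.0 and 41.5 CPM with IFNw, 35.5 and 33.4 CPM with H11 and 38.7 and 39.4 CPM with IFNL3 in optimized cells, against 13.2 and 11.4 CPM untreated. Its wild-type values were 37.9 and 47.6 CPM with IFNw, 33.0 and 35.7 CPM with H11 and 25.3 and 32.4 CPM with IFNL3, against 16.7 and 19.8 CPM untreated. Treated and untreated libraries did not overlap in either genotype. In optimized cells the changes were 1.70 ± 0.18 with IFNw, 1.47 ± 0.18 with H11 and 1.65 ± 0.18 with IFNL3 (edgeR adjusted p = 1.54e-06, 8.27e-06 and 4.92e-06), and with H11 in wild-type cells 0.91 ± 0.17 (edgeR adjusted p = 0.000375). Its wild-type IFNL3 call was lost without wild-type untreated replicate 1 (0.55, adjusted p = 0.0586) and without wild-type IFNL3 replicate 2 (0.47, adjusted p = 0.0831).

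DNAJB4, a close relative of DNAJB1, had 17.4 and 20.4 CPM with IFNw, 25.3 and 18.8 CPM with H11 and 13.7 and 11.8 CPM with IFNL3 in optimized cells, against 7.74 and 7.53 CPM untreated. The wild-type line had 19.1 and 18.9 CPM with IFNw, 9.22 and 11.4 CPM with H11 and 9.66 and 7.09 CPM with IFNL3, against 6.29 and 6.38 CPM untreated. The IFNw libraries of both genotypes and the optimized H11 libraries formed the high end. Its log2 fold change was 1.31 ± 0.22 with IFNw and 1.53 ± 0.22 with H11 in optimized cells (edgeR adjusted p = 0.000209 and 4.75e-05), and 1.58 ± 0.22 with IFNw in wild-type cells (edgeR adjusted p = 3.35e-05). DNAJA2, which serves HSP70 in refolding, had 336 and 288, 344 and 301, and 277 and 263 CPM with IFNw, H11 and IFNL3 in optimized cells, against 202 and 224 CPM untreated. Wild-type cells had 304 and 299.8 CPM with IFNw, but 173 and 142 CPM with H11 and 152 and 160.4 CPM with IFNL3, against 191 and 238 CPM untreated. DNAJA2 was thus lower with the lambda ligands and higher with IFNw in wild-type cells. The falls were -0.45 ± 0.14 with H11 and -0.46 ± 0.14 with IFNL3 (edgeR adjusted p = 0.016 and 0.0136). Both falls were lost without wild-type untreated replicate 2 (-0.28, adjusted p = 0.202, and -0.29, adjusted p = 0.182), and each also without 1 of its treated libraries (wild-type H11 replicate 2, adjusted p = 0.178, and wild-type IFNL3 replicate 1, adjusted p = 0.0893).

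The HSP110 gene HSPH1, a nucleotide exchange factor of HSP70, had 93.5 and 111 CPM with IFNw, 97.9 and 110.3 CPM with H11 and 145 and 164 CPM with IFNL3 in optimized cells, against 56.0 and 28.7 CPM untreated. In wild-type cells it had 87.6 and 101 CPM with IFNw, 156 and 134 CPM with H11 and 117 and 148 CPM with IFNL3, against 48.2 and 67.3 CPM untreated. Its highest levels were with IFNL3 in both genotypes and with H11 in wild-type cells. It rose by 1.84 ± 0.23 with IFNL3 in optimized cells (edgeR adjusted p = 3.79e-05), and by 1.33 ± 0.23 with H11 and 1.20 ± 0.23 with IFNL3 in wild-type cells (edgeR adjusted p = 0.00022 and 0.000508). Its smaller rise with IFNw in wild-type cells was lost without wild-type untreated replicate 1 (0.48, adjusted p = 0.224) or wild-type IFNw replicate 2 (0.63, adjusted p = 0.133). The related HSPA4 rose with IFNL3 in optimized cells, where it had 346 and 364 CPM, against 215 and 252 CPM untreated, and with H11 and IFNL3 in wild-type cells. HSPA4L rose in both IFNL3 comparisons.

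The 3 HSP70 co-chaperones moved apart. BAG3, which links HSP70 to autophagy and is a classical HSF1 target, had 30.0 and 34.9 CPM with IFNw, 29.5 and 28.9 CPM with H11 and 38.8 and 51.5 CPM with IFNL3 in optimized cells, against 33.4 and 43.8 CPM untreated, and no comparison with untreated cells passed there. The wild-type line had 43.7 and 49.97 CPM with H11 and 42.8 and 58.1 CPM with IFNL3, against 23.2 and 29.9 CPM untreated, and IFNw gave 22.4 and 27.6 CPM, which overlapped the untreated range. BAG3 was called higher with both lambda ligands in wild-type cells, by 0.92 ± 0.20 with IFNL3 (edgeR adjusted p = 0.00139). ST13, the HSP70-interacting protein Hip, fell by 0.57 ± 0.12 with H11 and by 0.63 ± 0.12 with IFNL3 in wild-type cells (edgeR adjusted p = 0.00124 and 0.000531). Its levels were 162 and 168 CPM and 162 and 154 CPM, against 266 and 223 CPM untreated. A smaller fall with H11 in optimized cells (-0.37 ± 0.12, edgeR adjusted p = 0.0256) was lost without optimized untreated replicate 1 or either H11 library (adjusted p = 0.0792 to 0.205), with those 2 groups fitted alone (adjusted p = 0.22) and without the count filter (adjusted p = 0.0529). STIP1 (Hop), which joins HSP70 to HSP90, rose with H11 and IFNL3 in wild-type cells, where it had 336 and 372 CPM and 327 and 371 CPM, against 232 and 264 CPM untreated.

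The 2 cytosolic HSP90 genes behaved differently. HSP90AA1, the inducible form, had 1477 and 1220 CPM with IFNw, 1362 and 1309 CPM with H11 and 1038 and 909 CPM with IFNL3 in optimized cells, against 722 and 379 CPM untreated. Wild-type cells had 1542 and 1228 CPM with IFNw, 728 and 676 CPM with H11 and 778 and 624 CPM with IFNL3, against 824 and 656 CPM untreated. All optimized treated libraries were above the untreated ones, while in wild-type cells the lambda-ligand libraries overlapped the untreated ones. It rose by 1.29 ± 0.22 with IFNw and 1.28 ± 0.22 with H11 in optimized cells (edgeR adjusted p = 0.000221 and 0.00025). Optimized untreated replicate 2 was its lowest library. Without it the changes were 0.90 (adjusted p = 0.000786) and 0.89 (adjusted p = 0.000899). HSP90AB1, the constitutive form, was between 1189 and 1810 CPM in all libraries and was called in no ligand comparison.

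Of the HSP90 co-chaperones, CHORDC1, a stress-inducible partner of HSP90, rose with IFNL3 in optimized cells and with H11 and IFNL3 in wild-type cells. It was at 43.8 and 39.6 CPM with IFNw, 42.3 and 37.1 CPM with H11 and 64.3 and 57.6 CPM with IFNL3 in optimized cells, against 30.1 and 38.7 CPM untreated. In wild-type cells it was at 34.1 and 36.9 CPM with IFNw, 63.7 and 72.9 CPM with H11 and 70.8 and 70.2 CPM with IFNL3, against 28.2 and 37.4 CPM untreated. IFNw left it within the untreated range there, and the changes with H11 and IFNL3 were 1.06 ± 0.16 and 1.10 ± 0.16 (edgeR adjusted p = 6.98e-05 and 4.64e-05). AHSA1, the activator of the HSP90 ATPase, was called higher with H11 and IFNL3 in wild-type cells, by 0.48 ± 0.16 and 0.51 ± 0.16 (edgeR adjusted p = 0.0258 and 0.0191; 0.74 and 0.78 when adjusted for length). The immunophilin FKBP4 was called higher with H11 in optimized and IFNw in wild-type cells, and adjusted for length neither call passed (0.23, adjusted p = 0.125, and 0.24, adjusted p = 0.111). CDC37, the kinase adaptor, and PTGES3 (p23) were called in no ligand comparison, though with the length adjustment CDC37 was called higher with IFNL3 in wild-type cells (0.35, adjusted p = 0.0355). PTGES3 had 173 CPM in optimized untreated replicate 2 against 452 CPM in replicate 1, so its comparisons in optimized cells rest on replicates that differed by 89.3% of their mean.

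The 7 TRiC subunits of the set did not move together. The set lacks the subunit CCT6A, which was counted with the other chaperonin genes below. With IFNw in optimized cells CCT2, CCT3, CCT4 and CCT7 rose and CCT8 fell, and wild-type cells gave the same directions for these 5. Adjusted for length, CCT7 no longer passed with IFNw in wild-type cells (0.30, adjusted p = 0.0981) or with H11 in optimized cells (0.33, adjusted p = 0.0642). TCP1 was then called lower with IFNw (-0.34, adjusted p = 0.0216) and H11 (-0.37, adjusted p = 0.0136) in optimized cells and with IFNw in the wild-type line (-0.40, adjusted p = 0.00907), and CCT5 with IFNw in optimized cells (-0.42, adjusted p = 0.0222). CCT2 had 372 and 449 CPM with IFNw, 413 and 442 CPM with H11 and 229 and 264 CPM with IFNL3 in optimized cells, against 193 and 278 CPM untreated. Its wild-type values were 527 and 495 CPM with IFNw, 155 and 175 CPM with H11 and 173 and 178 CPM with IFNL3, against 200.1 and 198 CPM untreated. IFNw raised it by 1.36 ± 0.15 in wild-type cells (edgeR adjusted p = 3.4e-06). CCT3 had 1042 and 987, 1027 and 977, and 827 and 733 CPM with IFNw, H11 and IFNL3 in optimized cells, against 516 and 378 CPM untreated. Wild-type cells had 924 and 868 CPM with IFNw, 506 and 447 CPM with H11 and 460.0 and 469 CPM with IFNL3, against 559 and 561 CPM untreated. Both genes were therefore at their highest in the same 3 groups, IFNw in either genotype and H11 in optimized cells.

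CCT8 ran the other way. It had 261 and 235 CPM with IFNw and 240.5 and 244 CPM with H11 in optimized cells, against 308 and 427 CPM untreated, and 248 and 243 CPM with IFNw in wild-type cells, against 335 and 356 CPM untreated. The falls were -0.57 ± 0.13, -0.60 ± 0.13 and -0.49 ± 0.13 (edgeR adjusted p = 0.00306, 0.00202 and 0.00877). These falls were small and rested on single libraries. The wild-type one was lost without either wild-type IFNw library or without untreated replicate 2 (adjusted p = 0.0624 to 0.0751). The optimized IFNw one was lost without IFNw replicate 2 (adjusted p = 0.0578), and both optimized ones with their 2 groups fitted alone (adjusted p = 0.0983 and 0.084). Without optimized untreated replicate 2 they were -0.32 (adjusted p = 0.037) and -0.35 (adjusted p = 0.0218). CCT5 fell by 0.43 ± 0.13 with H11 in optimized cells (edgeR adjusted p = 0.0195), a call lost without either H11 library or without untreated replicate 2 (-0.27, adjusted p = 0.142; range of adjusted p = 0.0727 to 0.183), and with the 2 groups fitted alone (adjusted p = 0.174).

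In wild-type cells CCT4 and CCT7 fell with both lambda ligands. CCT4 had 299 and 297 CPM with H11 and 309 and 310.2 CPM with IFNL3, against 398 and 389 CPM untreated. CCT7 had 196 and 227 CPM and 187 and 199.9 CPM, against 274 and 278 CPM untreated. Treated and untreated libraries did not overlap for either gene, but the falls were small and rested on single libraries. With H11 they were -0.40 ± 0.12 for CCT4 and -0.38 ± 0.13 for CCT7 (edgeR adjusted p = 0.0112 and 0.0285), and with IFNL3 -0.35 ± 0.12 and -0.51 ± 0.13 (edgeR adjusted p = 0.0253 and 0.00529). The CCT4 call was lost with H11 without wild-type untreated replicate 1 or either H11 library (adjusted p = 0.0543 to 0.0605), and with IFNL3 without any 1 of the 4 libraries (adjusted p = 0.0704 to 0.104). The CCT7 call was lost with H11 without either untreated library or H11 replicate 1 (adjusted p = 0.0842 to 0.213) and with the length adjustment (-0.25, adjusted p = 0.142), and with IFNL3 without IFNL3 replicate 1 (adjusted p = 0.0517).

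**Figure D3:**
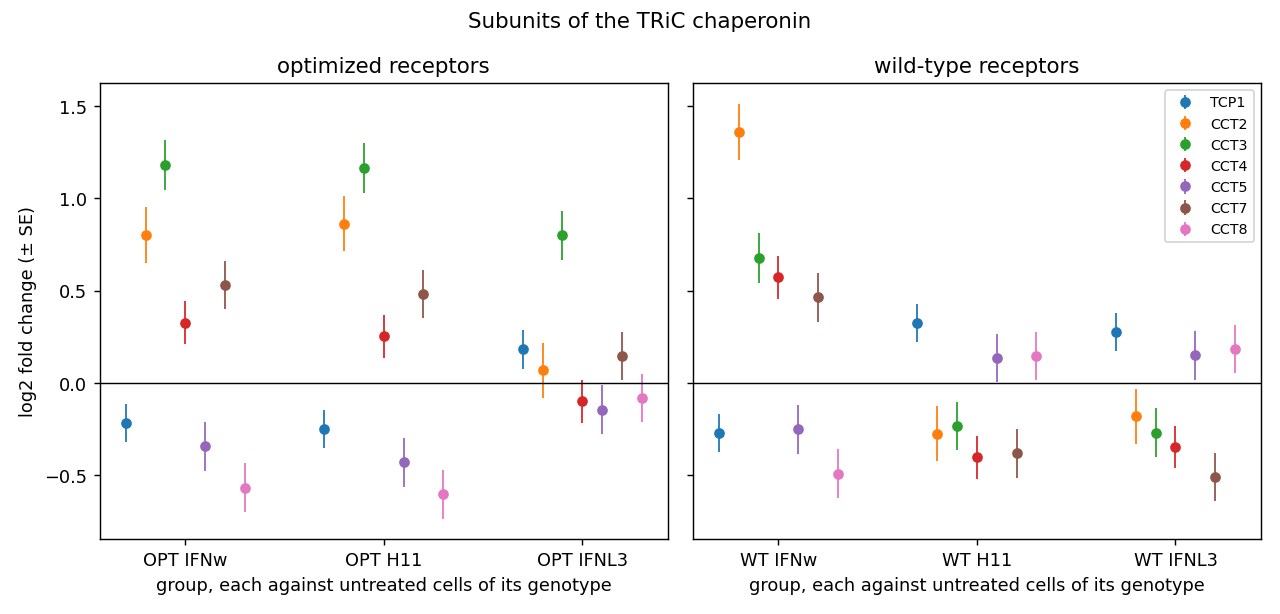
Log2 fold change (± SE) of the 7 TRiC subunits of the set against untreated cells of the same genotype, optimized cells in the left panel and wild-type cells in the right one. CCT2, CCT3, CCT4 and CCT7 lie above 0 and TCP1, CCT5 and CCT8 below 0 with IFNw in either genotype and with H11 in optimized cells, whereas the signs are opposite with H11 and IFNL3 in wild-type cells.

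Of the mitochondrial chaperones, HSPE1 changed most and its partner HSPD1 did not pass in any comparison. HSPE1 (HSP10) had 1618 and 1651 CPM with IFNw, 1628 and 1653 CPM with H11 and 784 and 823 CPM with IFNL3 in optimized cells, against 516 and 696 CPM untreated. Wild-type cells had 1783 and 1598 CPM with IFNw, 451 and 434 CPM with H11 and 455 and 432 CPM with IFNL3, against 566 and 519 CPM untreated. Both IFNw groups and the optimized H11 group, each with 1598 CPM or more, stood far above the other 5 groups, whose highest library had 823 CPM. The rise was 1.43 ± 0.13 with IFNw and 1.44 ± 0.13 with H11 in optimized cells (edgeR adjusted p = 2.79e-07 and 2.87e-07), and 1.64 ± 0.13 with IFNw in wild-type cells (edgeR adjusted p = 6.06e-08). HSPE1 has the shortest transcript of the set (570 nt), and the same groups had the negative length trend. Adjusted for length, the 3 rises were 0.89, 0.93 and 1.09 and stayed called, while the smaller one with IFNL3 in optimized cells was 0.34 and no longer passed (adjusted p = 0.073). HSPD1 (HSP60), which forms the chamber that HSPE1 closes, had 1318 and 1184, 1313 and 1213, and 1484 and 1472 CPM with IFNw, H11 and IFNL3 in optimized cells, against 1403 and 1052 CPM untreated. Its wild-type values were 1198 and 846, 1599 and 964, and 1522 and 1559 CPM, against 1284 and 1282 CPM untreated. Its groups overlapped, and its replicates differed by up to 49.6% of their mean. HSPA9, the mitochondrial HSP70, was called in no ligand comparison and had 344 and 160.1 CPM in the 2 optimized untreated libraries.

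The small HSP gene HSPB1 (HSP27) was between 525 and 759 CPM in all libraries and was called in no ligand comparison. Its transcript is among the shortest here (718 nt), and with the length adjustment it was called lower with IFNw (-0.46, adjusted p = 0.00666) and H11 (-0.44, adjusted p = 0.00775) in optimized cells. HSF1, the main stress-activated factor, had 67.0 and 57.1, 71.3 and 64.8, and 77.8 and 76.0 CPM with IFNw, H11 and IFNL3 in optimized cells, against 93.1 and 52.5 CPM untreated. The wild-type line had 80.3 and 76.7, 87.9 and 89.3, and 93.9 and 93.5 CPM, against 84.8 and 64.3 CPM untreated. HSF1 RNA passed in no comparison, and HSF1 acts largely through its protein state, which was not measured. HSF2 fell by 0.54 ± 0.15 with IFNL3 in wild-type cells (edgeR adjusted p = 0.0102), where it had 27.1 and 22.3 CPM, against 36.1 and 35.6 CPM untreated, and the call was lost without IFNL3 replicate 2 (-0.40, adjusted p = 0.122).

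**Figure D4:**
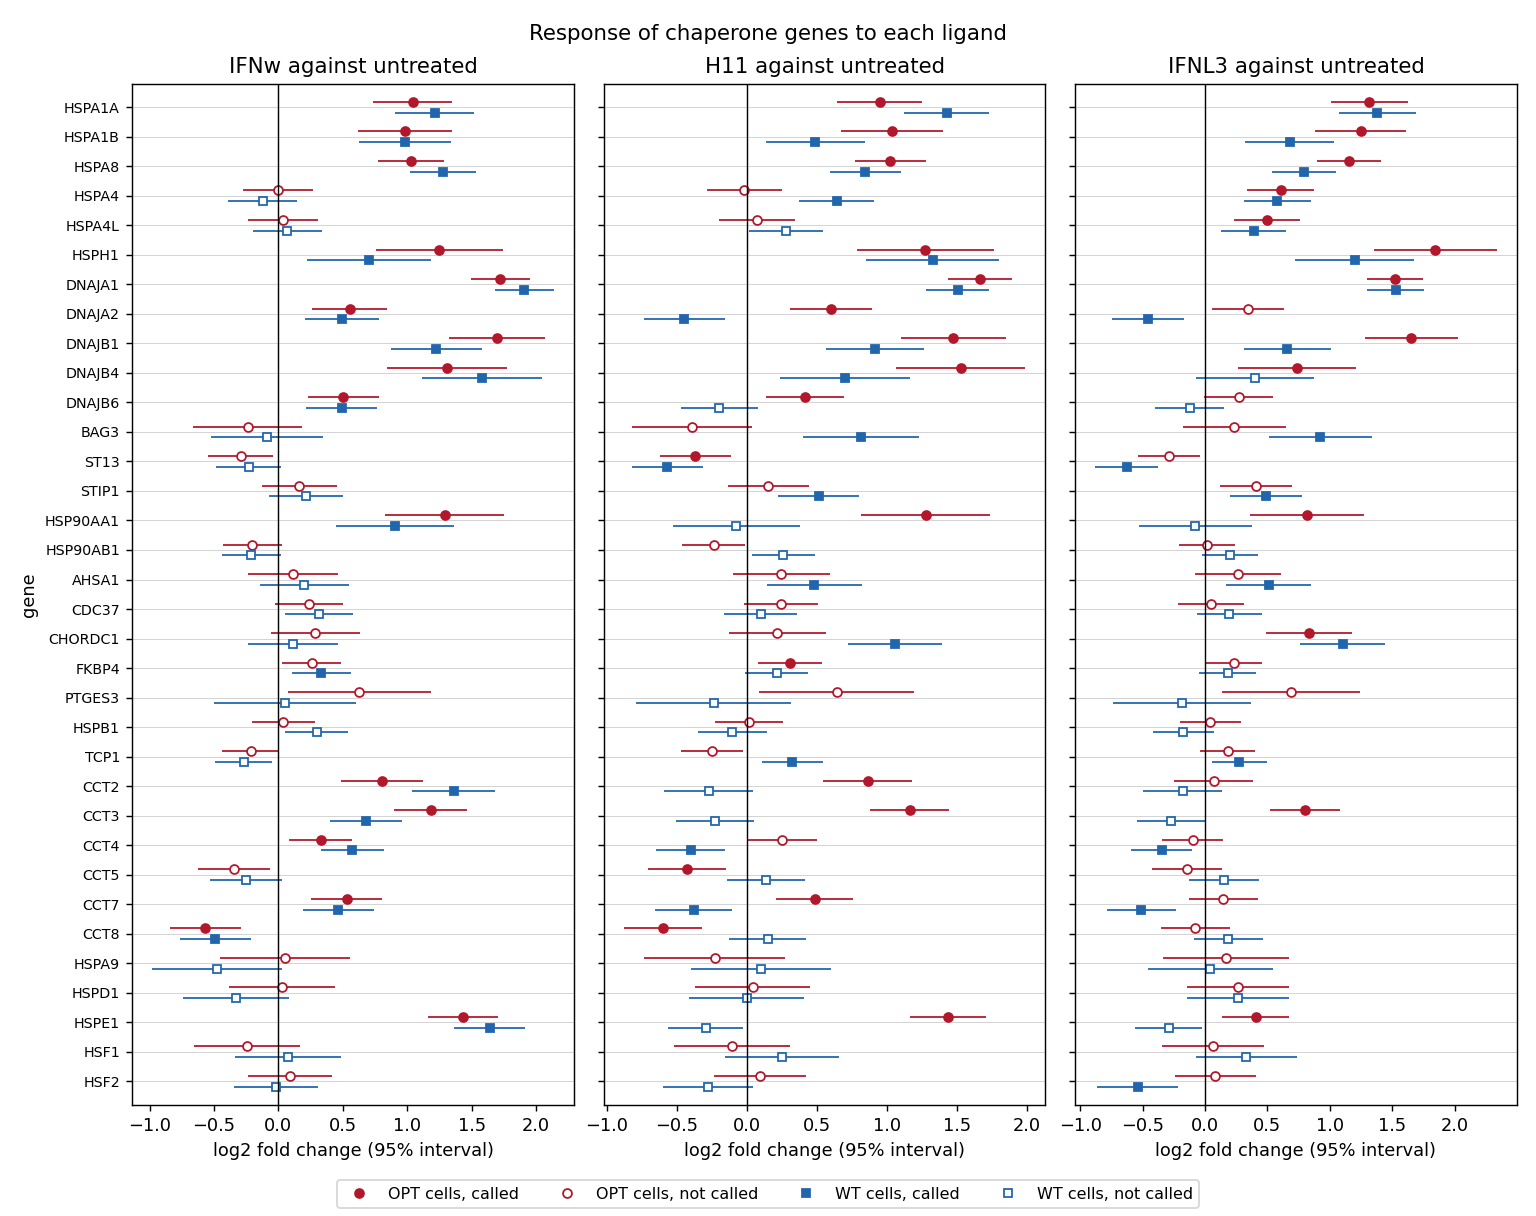
Log2 fold change against untreated cells with its 95% interval for each tested chaperone, in a panel per ligand; red circles are optimized cells, blue squares wild-type cells, and filled symbols passed the adjusted p of 0.05. The genotypes lie close together with IFNw, where no response difference passed, and apart with H11, where 16 did.

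The genotypes were then compared within each treatment. Between optimized and wild-type cells no member differed when untreated or with IFNw, and no gene did (0% of 12704 called in each). At an unadjusted p of 0.05, 705 and 439 genes and 3 (BAG3, CCT3 and DNAJB1) and 1 (CCT2) of the members passed, and DESeq2 called 0 genes in both. The 95% interval of the difference was within 2-fold for 33 of 34 members when untreated, the exception being PTGES3 with a lower bound of -1.11, and for all 34 with IFNw. The untreated result depended on the library that stood apart: without optimized untreated replicate 1, so that replicate 2 alone stood for the group, 9 members were called. With H11, 11 members were higher and 8 lower in optimized cells (51.7% of all genes called), and with IFNL3, 11 were higher and 0 lower (33.2%). As shares of the 34 these are 55.9% and 32.4%, close to the shares of all genes. The IFNL3 count was 7 without either wild-type IFNL3 library or optimized IFNL3 replicate 2.

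With H11 the largest differences between optimized and wild-type cells were in HSPE1 (1.89 ± 0.13), CCT2 (1.38 ± 0.15), DNAJB4 (1.09 ± 0.20), CCT3 (1.07 ± 0.13) and DNAJA2 (1.03 ± 0.14), with edgeR adjusted p of 3.7e-09, 1.02e-06, 0.000252, 3.81e-06 and 8.17e-06. HSPE1 was 1.08 when adjusted for length and remained called. Lower in optimized cells were CHORDC1 (-0.78 ± 0.16), HSPA9 (-0.74 ± 0.24), TCP1 (-0.72 ± 0.10), BAG3 (-0.68 ± 0.20) and CCT8 (-0.66 ± 0.13), with edgeR adjusted p of 0.000561, 0.0155, 1.86e-05, 0.00824 and 0.000456. HSPA9 was lost without wild-type H11 replicate 1 (adjusted p = 0.0925), without optimized H11 replicate 2 (adjusted p = 0.166) and with the length adjustment (-0.47, adjusted p = 0.121), and BAG3 without replicate 2 of either group (adjusted p = 0.063 and 0.0535). With IFNL3, HSPE1 (0.86 ± 0.13), DNAJA2 (0.79 ± 0.14), CCT3 (0.75 ± 0.13), HSF2 (0.62 ± 0.15) and DNAJB4 (0.60 ± 0.21) were higher in optimized cells, with edgeR adjusted p of 7.53e-05, 0.000319, 0.000376, 0.00474 and 0.0363. These were the HSP40s, chaperonin subunit and mitochondrial lid that also differed with H11, with HSF2 added. HSPE1 was 0.50 when adjusted for length (adjusted p = 0.00616), and 2 further calls rested on single libraries. HSF2 was lost without replicate 1 of optimized IFNL3 or replicate 2 of wild-type IFNL3 (adjusted p = 0.0612 and 0.0732). DNAJB4 was lost without either optimized IFNL3 library or wild-type IFNL3 replicate 2 (adjusted p = 0.0603 to 0.278) and with DESeq2 (adjusted p = 0.0575).

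The test of the response itself (the optimized response minus the wild-type response) separated the ligands. For IFNw, 0 members and 0% of all genes passed, with 633 genes and 2 members (CCT2 and CCT3) at an unadjusted p of 0.05 and 0 genes by DESeq2. The 95% interval was within 2-fold for 29 of 34 members, so larger differences were not bounded for the other 5, and 6 members passed without optimized untreated replicate 1. For H11, 9 members responded more and 7 less in optimized cells (36.9% of all genes), and for IFNL3, 6 more and 0 less (18.4%). The IFNL3 count was near the background share, since it was 17.6% of the 34, and it moved to 12 without optimized untreated replicate 1, to 9 without optimized untreated replicate 2 and to 3 without wild-type untreated replicate 2.

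All 7 TRiC subunits of the set were among the 16 called for H11, with CCT2, CCT3, CCT4 and CCT7 responding more and TCP1, CCT5 and CCT8 less in optimized cells. The response differences of CCT3 (1.40 ± 0.19), CCT2 (1.14 ± 0.21), CCT8 (-0.75 ± 0.19) and TCP1 (-0.57 ± 0.15) had edgeR adjusted p of 2.2e-05, 0.000487, 0.00434 and 0.0055. The CCT8 value was -0.50 without optimized untreated replicate 2 (adjusted p = 0.00972). HSPE1 had the largest difference (1.73 ± 0.18, edgeR adjusted p = 1.5e-06), which was 0.95 when adjusted for length (adjusted p = 0.000619). HSP90AA1 (1.35 ± 0.31) and DNAJA2 (1.05 ± 0.19) also responded more in optimized cells (edgeR adjusted p = 0.00225 and 0.000444). BAG3 (-1.21 ± 0.28), CHORDC1 (-0.84 ± 0.23) and HSPA4 (-0.66 ± 0.18) responded less (edgeR adjusted p = 0.00286, 0.00831 and 0.00802). CHORDC1 and HSPA4 were just lost without wild-type untreated replicate 1 (-0.65, adjusted p = 0.0502, and -0.51, adjusted p = 0.0503). With length adjustment 17 members passed for H11, 15 of them among the 16, the lost one being DNAJB6 and the added ones AHSA1 and HSPB1.

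For IFNL3 the response difference was 1.07 ± 0.19 for CCT3, 0.99 ± 0.24 for DNAJB1, 0.90 ± 0.31 for HSP90AA1, 0.80 ± 0.19 for DNAJA2 and 0.70 ± 0.18 for HSPE1 (edgeR adjusted p = 0.000849, 0.00911, 0.0496, 0.00857 and 0.0122). CCT3 and DNAJB1 stayed called in every fit that left out 1 library. HSP90AA1 was lost without any 1 of 7 of the 8 libraries (0.51 to 1.07, adjusted p = 0.0526 to 0.177), was 1.44 without optimized untreated replicate 1 (adjusted p = 0.000153), and was lost with the 4 groups fitted alone (adjusted p = 0.118). DNAJA2 was lost without wild-type untreated replicate 2 (adjusted p = 0.0522). HSPE1 was lost without wild-type IFNL3 replicate 2 (adjusted p = 0.0529), with the 4 groups alone (adjusted p = 0.0594) and with the length adjustment (0.36, adjusted p = 0.181).

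**Figure D5:**
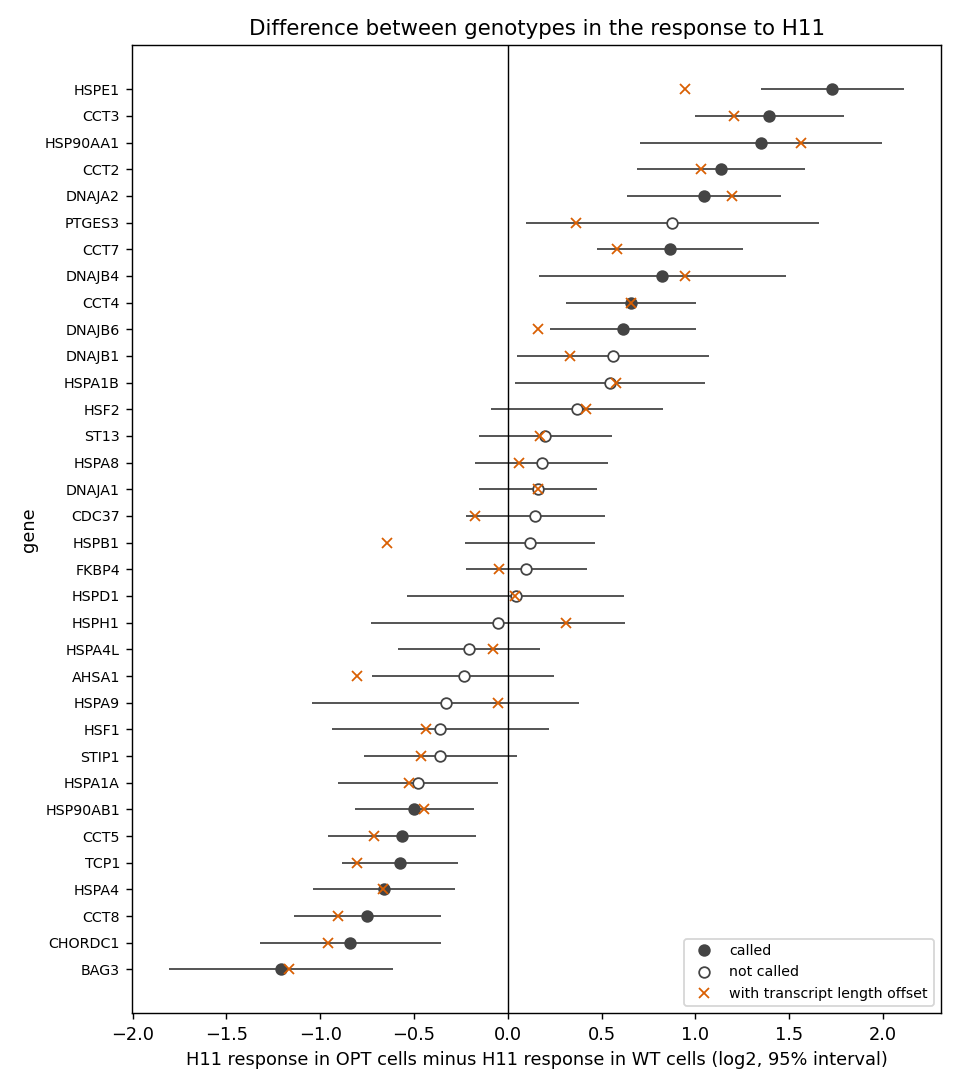
Response difference for H11 (optimized minus wild-type response, log2) of each tested chaperone with its 95% interval, filled where the adjusted p passed 0.05, and the value adjusted for transcript length as a cross. Values run between 1.73 for HSPE1 and -1.21 for BAG3, and the adjustment moves HSPE1 to 0.95.

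H11 and IFNL3 were set side by side within a genotype at the same dose and time. In wild-type cells no member and no gene (0%) differed, with 158 genes and 0 members at an unadjusted p of 0.05 and 0 genes by DESeq2. The 95% intervals of H11 minus IFNL3 were within 2-fold for all 34 members there, with the outermost bounds 0.75 for DNAJB4 and -0.68 for HSPD1 (log2). In optimized cells 4 members were higher and 6 lower with H11 (17.6% of all genes called), and this count was 4 or 5 without any 1 of the 4 libraries and 17 with these 2 groups fitted alone. With replicate number as a block it was 16 (7 higher, 9 lower). HSPE1 (1.03 ± 0.13), CCT2 (0.79 ± 0.15), DNAJB4 (0.79 ± 0.20) and CCT4 (0.35 ± 0.12) were higher, with edgeR adjusted p of 8.88e-05, 0.00178, 0.0125 and 0.0444. All 4 were also called higher in optimized than in wild-type cells with H11. HSPE1 was 0.59 when adjusted for length (adjusted p = 0.00627). Lower with H11 were BAG3 (-0.63 ± 0.20), HSPA4 (-0.63 ± 0.13), CHORDC1 (-0.62 ± 0.16), CCT8 (-0.52 ± 0.13) and TCP1 (-0.43 ± 0.10), with edgeR adjusted p of 0.0376, 0.00289, 0.013, 0.0107 and 0.00863. HSPE1, CCT2 and HSPA4 stayed called without any 1 library. CCT4 and CCT8 were each lost without any 1 of the 4 libraries, and DNAJB4, BAG3, CHORDC1 and TCP1 without 2 or 3 of them (DNAJB4 without H11 replicate 1 or IFNL3 replicate 2, BAG3 without either H11 library or IFNL3 replicate 2, CHORDC1 without H11 replicate 2 or IFNL3 replicate 1, TCP1 without either H11 library or IFNL3 replicate 1). BAG3 was -0.41 without IFNL3 replicate 2 (adjusted p = 0.301). BAG3 (-0.61, adjusted p = 0.0626) and CCT4 (0.34, adjusted p = 0.0735) were also lost with the length adjustment, and CCT4 without the count filter (adjusted p = 0.0877).

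Related genes outside the set were counted from lists of their own. A chaperonin list of 15 genes tested held other chaperonin and prefoldin genes. It also held the phosducin-like genes PDCL and PDCL3 and the tubulin cofactor genes TBCA, TBCB, TBCC, TBCD and TBCE. Of the 15, 7, 8 and 3 were higher with IFNw, H11 and IFNL3 in optimized cells and 0 were lower. In wild-type cells 9 were higher and 0 lower with IFNw, 0 higher and 8 lower with H11, and 1 higher and 7 lower with IFNL3. The prefoldin subunits PFDN5 and PFDN4, which hand actin and tubulin to TRiC, rose by 1.38 ± 0.13 each with IFNw (edgeR adjusted p = 4.66e-07 and 3.71e-07) and changed by -1.06 ± 0.13 and -1.07 ± 0.13 with H11 in wild-type cells (edgeR adjusted p = 8.73e-06 and 7e-06). Their response differences for H11 were 2.68 ± 0.18 and 2.59 ± 0.18 (edgeR adjusted p = 1.9e-08 and 2.15e-08), larger than that of any of the 34 tested chaperones before length adjustment. No length-adjusted value is given for the genes of these lists, so the part of the length trend in their changes was not tested. A mixed list of other heat shock and related genes had 23 tested, and whether each is induced by stress was not examined. In optimized cells 9 were higher and 0 lower with IFNw, 9 and 1 with H11, and 4 and 0 with IFNL3. In wild-type cells 9 and 2, 2 and 4, and 2 and 5 were higher and lower with the same ligands. The tested genes of this list include CRYAB, described below, which passed the filter only through wild-type cells given H11 or IFNL3. HSPB11 (1.78 ± 0.17) and HSPA14 (1.66 ± 0.18) led with IFNw in optimized cells (edgeR adjusted p = 6.32e-07 and 2.05e-06), while HSPA6, among the most strictly stress-dependent HSP70 genes, had 0 to 14 reads per library. Of 20 genes listed as other HSP90 co-chaperones, 8 rose and 0 fell, 8 rose and 2 fell, and 5 rose and 1 fell with IFNw, H11 and IFNL3 in optimized cells, and 7 and 1, 2 and 6, and 1 and 7 in wild-type cells. That list includes HSP90B1, itself an HSP90. Of 21 genes listed as further HSP70 partners, HSPA5, itself an HSP70, among them, the counts higher and lower were 9 and 4, 9 and 3, and 4 and 0 in optimized cells and 9 and 3, 3 and 0, and 2 and 0 in wild-type cells. These partners were called less often than genes at large with H11 and IFNL3 in wild-type cells. They were called more often in the rest of these comparisons. The endoplasmic reticulum HSP70 gene HSPA5 rose by 1.39 ± 0.13 with IFNw in wild-type cells (edgeR adjusted p = 3.92e-07). Of 15 other mitochondrial chaperones and proteases, 5 rose and 3 fell, 5 rose and 3 fell, and 1 rose and 3 fell in optimized cells, and 6 and 3, 2 and 5, and 1 and 5 in wild-type cells. Shares called follow, for IFNw, H11 and IFNL3 in optimized, then wild-type cells. All genes had 33.4, 32.4 and 13.3%, then 31.4, 38.8 and 39.7%. The chaperonin list had 46.7, 53.3 and 20%, then 60, 53.3 and 53.3%. The mixed list had 39.1, 43.5 and 17.4%, then 47.8, 26.1 and 30.4%. HSP90 co-chaperones had 40, 50 and 30%, then 40% each. HSP70 partners had 61.9, 57.1 and 19%, then 57.1, 14.3 and 9.52%. Mitochondrial genes had 53.3, 53.3 and 26.7%, then 60, 46.7 and 40%.

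The alpha-B crystallin gene CRYAB, a small HSP of the mixed heat shock list, was read almost solely in wild-type cells given a lambda ligand. It had 112 and 189 reads with H11 and 135 and 167 reads with IFNL3, against 0 and 0 reads in untreated wild-type cells, and 0 to 5 reads in every other library. These levels, 12.7 and 13.5 CPM on average, were at least 81.4-fold and 86.8-fold higher than in untreated wild-type cells, taking 3 reads over that group as its floor. CRYAB passed the count filter only through these groups and was singled out after its values were seen. Its levels are therefore given as a description, without its own test result. It is among the tested genes of the mixed list, so the counts and shares of that list include it and lend it no support.

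The mean profile of the 34 chaperones over the 8 groups, each gene scaled to its own mean and SD, was 0.21, 0.17, 0.50 and -0.66 with IFNw, H11, IFNL3 and no ligand in optimized cells, and 0.22, 0.06, 0.08 and -0.57 in wild-type cells. Among 9846 other genes over 5 mean CPM, the 5 whose group means followed it most closely were DDX24 (Pearson correlation 0.987), HERC6 (0.986), GLOD4 (0.983), SAMHD1 (0.977) and OAS2 (0.976). The correlation is over 8 group means of 2 libraries each and is given as a description.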

How the data were processed

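RNA from 16 HEK293 libraries, 2 in each of 8 groups, was read on Ion Torrent chips after library preparation with the 540 or the 550 kit. The sources used here do not say which library had which kit. The authors deposited, per the file headers, read counts per gene target, 1 file a library, on build hg19 per the submitters' processing notes. No source used here names their aligner or counter. Each file held 20812 targets, of which 10 spike-in targets (at most 1 read each) were left out.

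The test was edgeR's quasi-likelihood F test (edgeR 4.0.16, R 4.3.3) after filterByExpr with TMM scaling. All 16 libraries entered one model with a mean per group, so that 1 spread was shared, and the common dispersion was 0.0176 (13.3% as a coefficient of variation). It covered 12704 targets, with Benjamini-Hochberg adjustment over all of them and a threshold of 0.05. CPM values use TMM-scaled library sizes. Those of the cell markers KRT8, KRT18, CDH2 and COL1A1 are the exception and use the unscaled total of each library. Other settings tried were DESeq2 size factors, no filter on low counts, a block for replicate number, an offset for transcript length (a spline with 5 degrees of freedom; 89.4% of targets had a length), fits of only the groups compared, DESeq2 1.42.0, and leaving out each library. Same-numbered libraries deviated together in all 28 pairs of groups (correlations 0.12 to 0.34, median 0.25, over 9880 genes), so the numbers pair the libraries by the data, though no label says what a number marks. Libraries held 5331203 to 9822088 reads, and replicates differed by more than counting error (chi-square over its degrees of freedom 6.18 to 24.2).

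The members, the gene lists and the tests were chosen with earlier results of these data known. In each comparison up to 5 called members per direction with the largest change are given with SE and adjusted p. CPM in every library is given for 11 leading members and for any member among the 2 largest changes of a comparison, and genes of the other lists are named where called (at most 3 per list, direction and comparison) or counted. The reads of CRYAB and HSPA6, the changes of AHSA1 and TCP1 under the length adjustment and the levels of further members were added after their values were seen. Heat shock element letters were searched in RefSeq promoter windows of GRCh38.p14, a build other than that of the counts, and no hg19 coordinate is given. The length of each target is not known, so levels are not compared between genes.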

Additional observations from a re-analysis of the deposited data

Results flagged for a closer look

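The response to a ligand differed between the genotypes for 16 chaperones with H11 (9 more and 7 less in optimized cells), beside 36.9% of all genes, and for 6 with IFNL3, near the 18.4% of all genes, by the test of the difference itself (optimized response minus wild-type response, log2 scale, edgeR's quasi-likelihood test). At most 5 are named per direction. With H11, HSPE1 (1.73), CCT3 (1.40), HSP90AA1 (1.35), CCT2 (1.14) and DNAJA2 (1.05) responded more in optimized cells. BAG3 (-1.21), CHORDC1 (-0.84), CCT8 (-0.75), HSPA4 (-0.66) and TCP1 (-0.57) responded less. With IFNL3, CCT3 (1.07), DNAJB1 (0.99), HSP90AA1 (0.90), DNAJA2 (0.80) and HSPE1 (0.70) passed, but HSP90AA1 was lost without any 1 of 7 of the 8 libraries, and DNAJA2 and HSPE1 without 1 of them. The chaperonin subunits CCT2, CCT3, CCT8 and TCP1 thus differed with opposite signs with H11. Adjusted for transcript length, HSPE1 was 0.95 with H11, still called, and 0.36 with IFNL3, where it no longer passed (adjusted p = 0.181). Single libraries were not tested as outliers within groups of 2.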

How the results depend on the processing

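Over the 83 named changes of members, no setting turned a direction. DESeq2 size factors and replicate number as a block kept all 83 calls, DESeq2 82, no count filter 81, the transcript length offset 78 and only the groups compared 77. Of 392 values with 1 library left out, 328 stayed called and 64 did not. The numbers of chaperones called changed by over 1.5 times in few settings. With only the groups compared, 6 rather than 13 were called with IFNL3 against untreated in optimized cells, and 17 rather than 10 between H11 and IFNL3 in optimized cells. Without the count filter, 1 rather than 0 was called between untreated optimized and wild-type cells. With replicate number as a block, 16 rather than 10 were called between H11 and IFNL3 in optimized cells (7 higher, 9 lower). The block changed no other count by over 1.5 times and no named call. With 1 library left out, where the lone library left is taken to have the spread of the others, the counts against untreated cells ranged over 14 to 22 (IFNw), 13 to 23 (H11) and 9 to 14 (IFNL3) in optimized cells. They ranged over 13 to 15, 9 to 12 and 11 to 14 in wild-type cells. Optimized against wild-type cells gave 0 to 9 untreated, 0 with IFNw, 16 to 17 with H11 and 7 to 8 with IFNL3. Response differences gave 0 to 6 for IFNw, 12 to 20 for H11 and 3 to 12 for IFNL3. H11 against IFNL3 gave 4 to 5 in optimized and 0 in wild-type cells. The cause of these moves was not tested. HSPA2 and DNAJA4, with 5 and 51 reads in all, were too low to test.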

Other observations

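The members did not follow their common profile to the same extent. The correlation of a member's 8 group means with the mean profile of the 34, a description over groups of 2 libraries each, was 0.97 for HSPA1B, 0.96 for HSPA8 and 0.94 for HSPA1A, DNAJA1 and DNAJB1. It was 0.45 for HSPE1 and 0.16 for its partner HSPD1. It was below 0 for TCP1 (-0.06), HSPA9 (-0.07), HSP90AB1 (-0.16), CCT8 (-0.36), CCT5 (-0.42) and ST13 (-0.69).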
